A study of Mus musculus with 24 samples.

Results

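The genes described here are 38 genes of mitosis, chosen by symbol: cyclins, mitotic kinases, spindle checkpoint and kinetochore proteins, motors and cytokinesis factors. All 38 were found among the 34836 gene rows of the array, each row being the brightest probe of 1 gene name. They were followed across 6 groups of mouse macrophages, on 24 Agilent arrays of 1 colour, of which 23 were used.

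All mice were C57BL/6 males aged 10 weeks. Tumor-associated macrophages (TAM) were taken either from naive mice or 14 days after the induction of sepsis, by a Percoll gradient and 1 hour of adhesion. Unpolarized macrophages (M0) were grown from the adherent marrow progenitors of naive mice and of post-sepsis mice, 14 days after the induction of sepsis. Culture lasted 7 days in RPMI with 20% L929 supernatant and 10% FBS. M1 and M2 cultures came from naive mice and received, at day 3, interferon-gamma at 50 ng/mL with LPS at 10 ng/mL (M1), or IL-10 at 20 ng/mL (M2). Each group had 4 samples, and TAM naive replicate 2, which the submitters had excluded for reduced and poor RNA, was left out, so TAM naive has n = 3. The samples were the best 4 of those from 3 experiments (TAM) or 2 experiments (marrow). The sources do not tie samples to experiments, so p-values measure only the spread between these chosen samples.

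Mitosis is driven by CDK1 bound to cyclin B, which the phosphatase CDC25C switches on. Aurora and Polo-like kinases build the spindle, the checkpoint proteins BUB1, BUBR1 and MAD2 hold back CDC20 until every kinetochore is attached, and the anaphase-promoting complex then marks cyclin B and securin for destruction. Messages of these genes accumulate late in the cell cycle under the MuvB complex with B-MYB and FOXM1, so in a mixed sample they follow the number of dividing cells as well as the output of each cell. Macrophages grown from marrow with L929 supernatant, a source of the growth factor CSF1, divide in culture. In these bulk samples fewer cells of a type and less RNA per cell cannot be told apart.

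The MuvB pathway is known to act through the cell cycle homology region, TTTGAA or its variant TTCGAA. Many promoters of mitosis genes also carry CCAAT boxes. All 3 motifs were searched on both strands, so a match can be printed as its reverse complement. RefSeq promoters (GRCm38.p6, 250 bases before to 50 after the start) were at hand for 32 of the 38 genes. On either strand, TTTGAA or TTCGAA occurred in 24 of the 32 (75%), against 21.7% of 27025 genes. At least 1 CCAAT occurred in 23 of the 32 (71.9%, against 41.1%), and at least 2 in 17 of the 32 (53.1%, against 13.3%). A match is only a run of letters in this window. The stretch from 120 bases before to 30 after the start is shown for the 6 genes named in every comparison and for Hmmr, which passed in none of the 5 marrow comparisons below, with matches to the 3 motifs in capitals.
Mki67, chr7:135716350-135716499, minus strand: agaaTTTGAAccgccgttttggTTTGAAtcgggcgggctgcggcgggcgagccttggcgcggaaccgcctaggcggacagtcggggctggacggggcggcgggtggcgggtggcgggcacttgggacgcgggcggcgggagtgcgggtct
Top2a, chr11:99024160-99024309, minus strand: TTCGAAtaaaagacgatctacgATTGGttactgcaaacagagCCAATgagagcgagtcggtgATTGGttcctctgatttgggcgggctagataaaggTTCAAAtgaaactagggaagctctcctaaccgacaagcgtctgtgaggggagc
Ccnb1, chr13:100786457-100786606, minus strand: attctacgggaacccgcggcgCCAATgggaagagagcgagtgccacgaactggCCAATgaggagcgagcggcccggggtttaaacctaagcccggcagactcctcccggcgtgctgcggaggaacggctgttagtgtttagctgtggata
Cdk1, chr10:69352883-69353032, minus strand: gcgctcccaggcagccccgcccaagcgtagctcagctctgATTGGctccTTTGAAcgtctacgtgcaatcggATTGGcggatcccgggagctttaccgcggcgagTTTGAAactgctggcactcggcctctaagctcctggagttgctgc
Aurka, chr2:172370541-172370690, minus strand: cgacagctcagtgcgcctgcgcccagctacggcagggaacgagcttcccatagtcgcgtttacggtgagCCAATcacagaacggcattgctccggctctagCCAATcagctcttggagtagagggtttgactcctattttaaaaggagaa
Plk1, chr7:122159315-122159464, plus strand: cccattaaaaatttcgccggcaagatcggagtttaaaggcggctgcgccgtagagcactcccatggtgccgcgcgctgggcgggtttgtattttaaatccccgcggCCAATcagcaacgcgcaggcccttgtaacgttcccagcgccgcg
Hmmr, chr11:40733408-40733557, minus strand: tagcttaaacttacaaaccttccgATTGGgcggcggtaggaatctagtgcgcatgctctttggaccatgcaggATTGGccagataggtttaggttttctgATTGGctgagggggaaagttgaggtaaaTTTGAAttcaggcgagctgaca
In these shorter stretches Top2a had 3 CCAAT matches with 1 TTTGAA and 1 TTCGAA, and Cdk1 had 2 CCAAT with 2 TTTGAA. Aurka and Ccnb1 had 2 CCAAT and neither other motif, Plk1 had 1 CCAAT, and Mki67 had 2 TTTGAA and no CCAAT. Hmmr had 3 CCAAT matches and 1 TTTGAA.

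Signals are log2 values relative to the 75th percentile of each array, and differences are log2 with limma's standard error; adjusted p-values are limma's, with Benjamini-Hochberg adjustment over all rows tested, and a gene passed at an adjusted p under 0.05. Over the 23 arrays the 75th percentile was an intensity of 236.5 to 693.2, and 56.86% to 69.7% of probes were well above background. No spot was saturated. The arrays lay on 3 slides, each with at least 5 groups. Nos2, the nitric oxide synthase induced by interferon-gamma with LPS, stood at 8.72 ± 0.17 (SD, n = 4) in M1 and at 0.38 ± 0.18 (SD, n = 4) in M0 naive.

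Averaged over the 38 genes, the array signal was highest in M0 post-sepsis cultures, at 1.98 ± 0.48 (SD, n = 4), and in TAM post-sepsis, at 1.84 ± 0.32 (SD, n = 4). TAM naive stood at 1.16 ± 0.39 (SD, n = 3), M0 naive at 0.18 ± 0.24 (SD, n = 4), M2 at -0.44 ± 0.14 (SD, n = 4) and M1 at -2.95 ± 0.11 (SD, n = 4). The ranges of the marrow groups did not overlap: M0 post-sepsis arrays ran from 1.47 to 2.39, M0 naive from -0.15 to 0.42, M2 from -0.63 to -0.31 and M1 from -3.03 to -2.80. TAM post-sepsis arrays, at 1.40 to 2.12, overlapped with TAM naive arrays, at 0.91 to 1.61, and with M0 post-sepsis arrays. Between 23 and 26 of the 38 genes were well above background on an M1 array, and between 33 and 38 on an array of any other group.

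**Figure D1:**
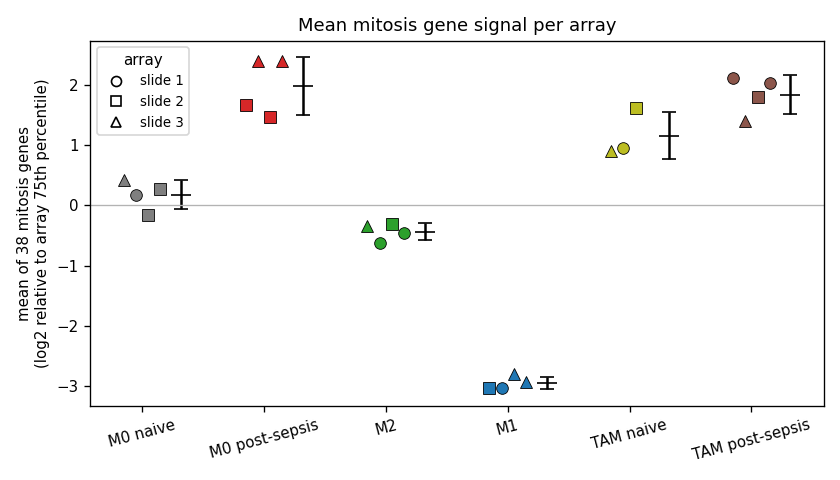
Mean log2 signal of the 38 mitosis genes on each array, relative to the array's 75th percentile, by group; the marker shape gives the slide and the bar at the right of each group is mean ± SD. M0 post-sepsis arrays lie between 1.47 and 2.39 and M1 arrays between -3.03 and -2.80.

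**Figure D2:**
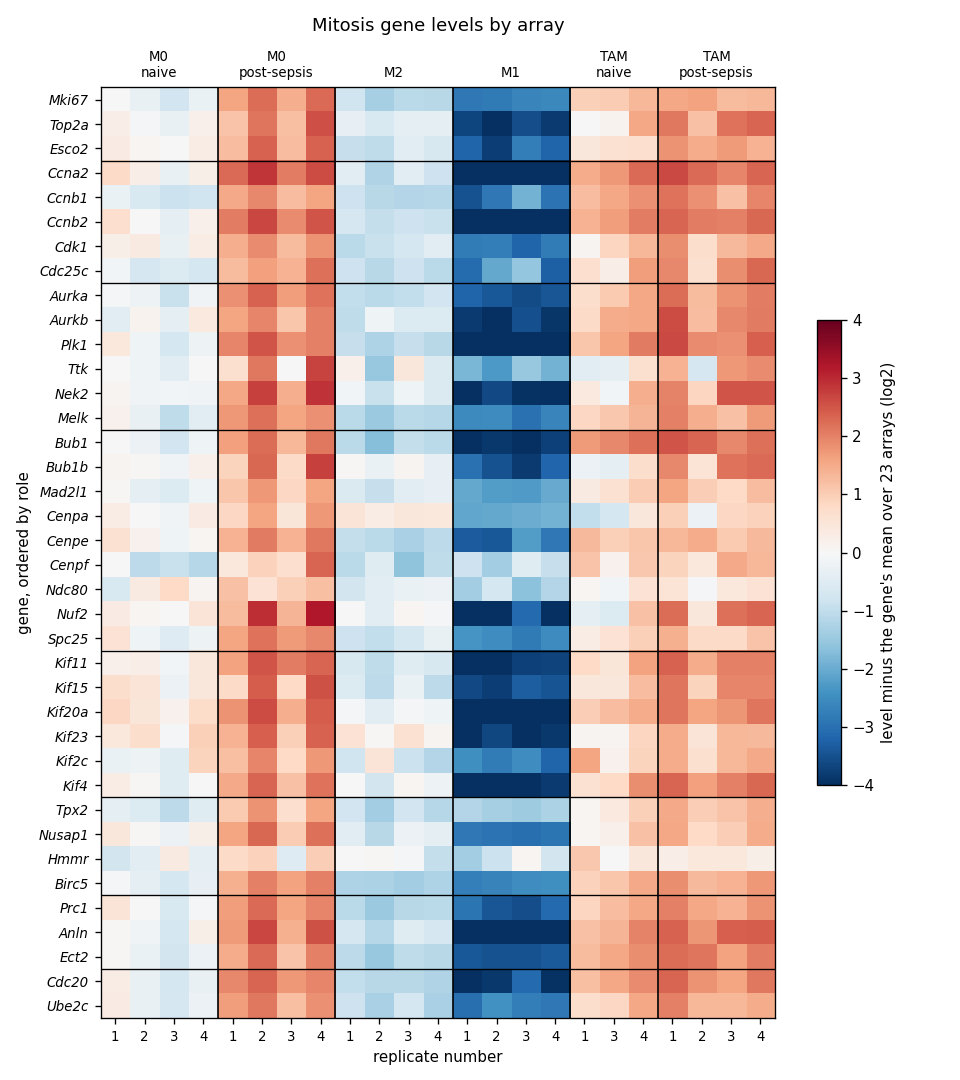
Log2 signal of each gene (rows, ordered by role, with lines between roles) on each of the 23 arrays, minus that gene's mean over the arrays. Red is above and blue below the gene's mean; colours saturate at 4 log2 units; M1 columns are blue and M0 post-sepsis columns red in nearly every row, with Tpx2, Ndc80, Cenpf and Hmmr the palest rows in M1.

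The first comparison set M0 cultures of post-sepsis mice against M0 cultures of naive mice. Mitosis genes were higher in the post-sepsis cultures: 34 of 36 tested rose, 0 fell, and the median difference was 1.90, against 0.05 over all 24578 rows tested. Of all rows, 7.06% were called higher and 6.6% lower. In 32 of the 36 genes every post-sepsis array exceeded every naive array, as did 7.08% of all rows. Ttk and Cenpf were too dim in both groups to be tested.

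Among genes of chromosome structure, Mki67, which coats mitotic chromosomes and is the usual marker of dividing cells, had signals of 3.49, 3.20, 2.70 and 3.22 in naive cultures. In post-sepsis cultures it had 5.07, 5.71, 4.94 and 5.74, so the groups lay well apart, with a difference of 2.21 ± 0.22 or 4.64-fold (adjusted p = 6.22e-06). Top2a, the topoisomerase that untangles sister chromatids, went from 0.53, 0.23, -0.02 and 0.47 to 1.42, 2.43, 1.49 and 2.86, a rise of 1.74 ± 0.28 (adjusted p = 0.000394). Esco2, which acetylates cohesin, showed the smallest rise of these 3, at 1.62 ± 0.29.

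All 5 genes of the CDK1 engine rose. Ccnb1, the cyclin of CDK1 at mitotic entry, had 1.88, 1.52, 1.29 and 1.35 in naive and 3.65, 4.05, 3.37 and 3.71 in post-sepsis cultures, a difference of 2.18 ± 0.27 (adjusted p = 5.24e-05). Cdk1 itself had 2.33, 2.46, 1.81 and 2.38 against 3.54, 3.98, 3.37 and 3.89, and its rise of 1.45 ± 0.21 was the smallest of the 5. Ccna2, the cyclin of S phase and G2, rose most in this group, by 2.20 ± 0.32.

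Of the mitotic kinases, 5 of 5 tested rose. Aurka, the kinase of spindle poles, had the largest rise of all 36 genes, 2.33 ± 0.20 or 5.03-fold (adjusted p = 1.83e-06), from 1.82, 1.67, 0.96 and 1.71 to 3.69, 4.21, 3.54 and 4.03. Plk1, which acts at centrosomes, kinetochores and the midbody, went from 3.05, 2.47, 1.95 and 2.44 to 4.61, 5.17, 4.46 and 4.68, by 2.25 ± 0.22. The smallest rise among kinases was that of Aurkb, the kinase of the chromosomal passenger complex, at 1.74 ± 0.28. Ttk, the kinase that starts checkpoint signalling, was above background on none of the naive arrays and on 2 post-sepsis arrays, too few for a size.

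Checkpoint and kinetochore genes rose in 7 of 8 tested. Bub1, a checkpoint kinase, rose by 2.12 ± 0.25, whereas Ndc80, part of the complex that grips microtubule ends, was at 0.81 ± 0.28 and did not pass (adjusted p = 0.0717). Its partners Nuf2 and Spc25 passed at 1.96 ± 0.44 and 1.91 ± 0.24. Cenpf, a kinetochore protein of G2 and mitosis, was above background on 1 post-sepsis array and no naive array, too few for a size.

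Kinesin motors rose in 6 of 6, from 1.27 ± 0.38 for Kif15 to 1.91 ± 0.30 for Kif11, the motor that pushes spindle poles apart. Spindle assembly and passenger genes rose in 3 of 4: Birc5, the survivin subunit of the passenger complex, at 2.12 ± 0.18 (adjusted p = 1.08e-06), but Hmmr, a spindle-bound hyaluronan receptor, at only 0.84 ± 0.39 (adjusted p = 0.202). Hmmr had 0.96, 1.24, 2.06 and 1.30 in naive and 2.46, 2.62, 1.16 and 2.66 in post-sepsis cultures, and replicate 3 of the latter fell among the naive arrays. The 3 cytokinesis genes rose, from 1.90 ± 0.23 for Prc1, which bundles midzone microtubules, to 2.23 ± 0.28 for the ring protein Anln. Cdc20, which activates the anaphase-promoting complex, rose by 2.24 ± 0.24, and Ube2c, the enzyme that starts its ubiquitin chains, by 1.93 ± 0.25.

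The post-sepsis cultures fell into 2 levels that went with the slide. Replicates 2 and 4, both on slide 3, had means of 2.39 and 2.39, and replicates 1 and 3, both on slide 2, had 1.67 and 1.47; 37 of the 38 genes were higher on both slide 3 arrays, by a median of 0.71. Slide, experiment and mouse cannot be told apart in this gap. The difference from naive cultures was present within each slide, with medians of 1.63 on slide 2 and 1.97 on slide 3. Macrophage markers moved the other way in the same arrays: 8 of 11 were lower in post-sepsis cultures, with a median of -1.21 and a summed level of 716 to 1150 times the 75th percentile against 1560 to 1890. Csf1r, the CSF1 receptor, was at -1.27 ± 0.17. Among neutrophil and progenitor markers 3 of 8 were higher, Ctsg at 2.15 ± 0.19, Mpo at 1.90 ± 0.31 and Prtn3 at 0.94 ± 0.24, and S100a8 at -1.96 ± 0.20, S100a9 at -1.99 ± 0.21 and Ly6g at -1.73 ± 0.34 were lower. The part of these cell type differences in the mitosis gene result was not tested.

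**Figure D3:**
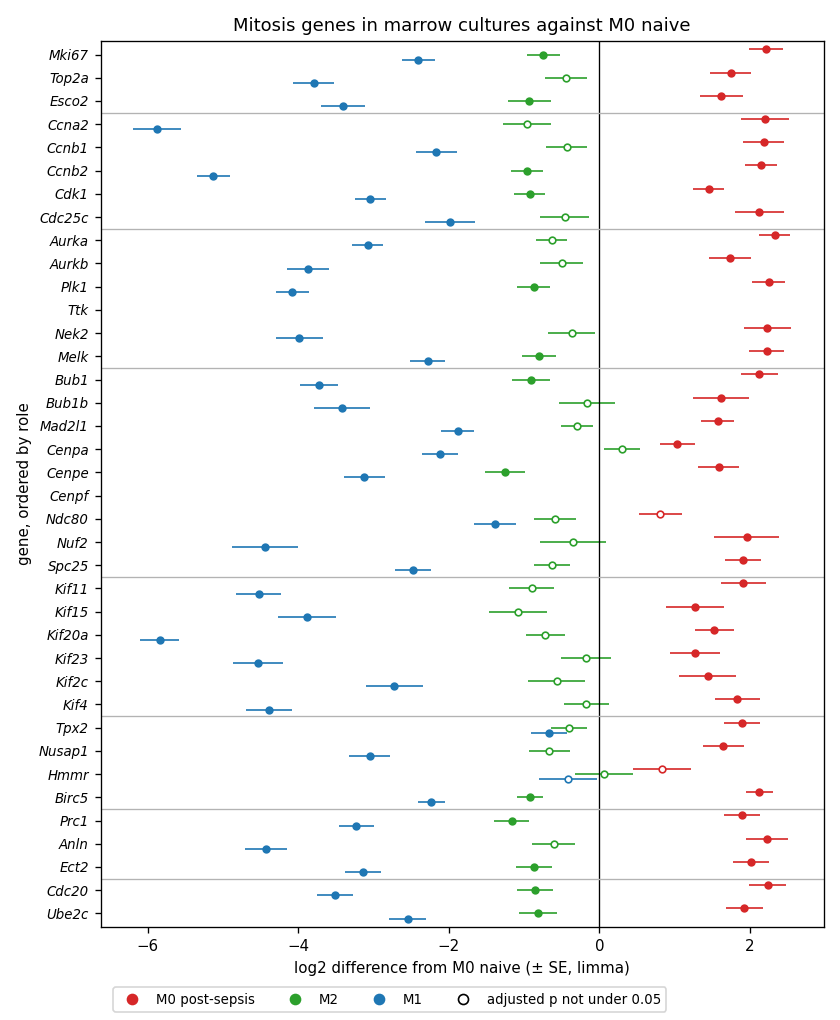
Log2 difference of each tested mitosis gene from M0 naive in M0 post-sepsis, M2 and M1 cultures, with limma standard errors; open symbols did not pass. The 3 sets share the M0 naive arrays; M0 post-sepsis values lie between 0.81 and 2.33, M2 values between -1.25 and 0.30, and M1 values between -5.87 and -0.42, of which 10 are fits to probes above background on no M1 array.

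The M1 comparison asked what interferon-gamma with LPS did to naive marrow cultures. Mitosis genes were far lower in M1: 35 of 36 tested fell, 0 rose, and the median difference was -3.18, against -0.10 over all rows. Of all rows, 16.2% were called lower and 15% higher. The 35 genes had every M1 array below every M0 naive array, which held for 19.5% of all rows. For 10 genes the probe used was above background on no M1 array, so they have only a bound and no rank. These entered the test through M0 naive alone, so their direction was largely set by that filter. Bub1 and Bub1b, above background on 2 and 1 M1 arrays, also entered through M0 naive alone. With the 10 genes at their bounds the median was -2.56. Cell markers moved in the same arrays: 6 of 11 macrophage markers were lower and 1 higher, 5 of 8 neutrophil and progenitor markers were lower and 1 higher, and 2 of 3 dendritic cell markers were higher. A positional index of RNA, the median over 584 genes of the signal nearest the 5' end minus that nearest the 3' end, centred per gene, was 0.11 ± 0.06 (SD, n = 4) in M1 and -0.09 ± 0.12 (SD, n = 4) in M0 naive. The part of these values in the result was not tested.

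Mki67 had 0.61, 0.67, 0.83 and 0.89 in M1, a fall of 2.40 ± 0.22 from the M0 naive signals above (5.29-fold; adjusted p = 3.84e-07). Top2a fell further, to -3.41, -3.72, -3.28 and -3.55 (-3.79 ± 0.28, or 13.9-fold; adjusted p = 3.35e-08). Both genes had every M1 array well above background, so these falls are measured on both sides. Esco2 was above background on no M1 array and was at least 2.72-fold lower.

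In the CDK1 group Ccna2 had the largest fall among the 25 genes that fell with at least 1 M1 array above background. It fell by 5.87 ± 0.32, from 2.36, 1.86, 1.32 and 1.84 in M0 naive to -4.70, -4.37, -3.19 and -3.86 in M1, and 3 of the 4 M1 arrays were above background. Ccnb1 was less reduced, with -1.35, -0.71, 0.24 and -0.80 (-2.17 ± 0.27), and Ccnb2 more so, at -5.13 ± 0.22. Cdk1 fell by 3.05 ± 0.21 to -0.72, -0.67, -1.12 and -0.70. The phosphatase gene Cdc25c was above background on no M1 array and was at least 1.58-fold lower.

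All 5 tested kinases fell. Plk1 had -1.54, -1.47, -1.73 and -1.66 in M1, a fall of 4.08 ± 0.22 or 16.9-fold, and Aurka had -1.35, -1.54, -1.71 and -1.55, a fall of 3.08 ± 0.20 (adjusted p = 1.24e-08). Melk, a kinase used as a marker of dividing progenitors, fell by 2.28 ± 0.23, the least of the 3 kinases measured in M1. Aurkb and the centrosome kinase Nek2 were above background on no M1 array and at least 4.05-fold and 4.29-fold lower.

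Of the checkpoint and kinetochore genes 8 of 8 tested fell. Nuf2 was at least 5.88-fold lower, with no M1 array above background by the probe used and 1 by another probe of Nuf2. Of the 7 others Ndc80 fell least, by 1.39 ± 0.28, and the centromere histone gene Cenpa was at -2.12 ± 0.24. Bub1 was at -3.73 ± 0.25 with 2 of 4 M1 arrays above background, and Bub1b had 1 such array. The kinesins fell in 6 of 6, and 5 of the 6 have only bounds: at least 40-fold for Kif20a, a motor of the midzone, 7.89-fold for Kif11, 5.88-fold for the chromosome-arm motor Kif4, 4.28-fold for the microtubule depolymerase Kif2c and 3.67-fold for Kif15. Kif23, the motor of centralspindlin, was measured on 3 M1 arrays and fell by 4.54 ± 0.33.

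The smallest M1 differences were those of 2 spindle assembly genes. Hmmr had 0.29, 0.85, 1.78 and 0.97 in M1, overlapping M0 naive, and a difference of -0.42 ± 0.39 (adjusted p = 0.514). Tpx2, which activates Aurora A on the spindle, had -0.20, -0.36, -0.46 and -0.30 in M1 and only just passed, at -0.67 ± 0.24 (adjusted p = 0.0480). Nusap1, a microtubule-bundling protein, fell by 3.05 ± 0.27. Cytokinesis genes fell by 3.14 ± 0.24 for Ect2, which turns on RhoA at the equator, to 4.43 ± 0.28 for Anln. Cdc20 fell by 3.51 ± 0.24 and Ube2c by 2.54 ± 0.25.

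IL-10 was followed by a smaller shift in the same direction. In M2 cultures 13 of 36 tested genes fell, 0 rose, and the median was -0.65, against -0.06 over all rows. Of all rows, 8.08% were called lower and 5.86% higher. In 19 of the 36 every M2 array was below every M0 naive array, as in 13.9% of all rows. Scaling the arrays by their medians moved the median of all rows from -0.06 to 0.04 and left 0 genes called, with a median of -0.55. Of all 24592 rows, 670 were then called lower. Without 1 array the count was 7, 6 or 6 (M0 naive replicates 1, 2 or 4) and 6 or 8 (M2 replicates 2 or 4). Of all rows 1395 to 1595 were called lower in these fits, of 23845 to 24374 tested. The M1 and M2 comparisons use the same M0 naive arrays as the post-sepsis one. Among markers, 4 of 11 macrophage genes were lower and 1 higher in M2, and 3 of 8 neutrophil and progenitor genes were lower. The positional index of RNA was 0.061 to 0.19 on M2 arrays, all above the -0.24 to 0.055 of M0 naive. The part of these values in the M2 result was not tested.

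Mki67 in M2 had 2.69, 2.16, 2.40 and 2.38, a fall of 0.75 ± 0.22 (adjusted p = 0.0340). Cdk1 had 1.03, 1.20, 1.39 and 1.66, all below the 4 M0 naive arrays (-0.92 ± 0.21, adjusted p = 0.00617), and Plk1 had 1.73, 1.41, 1.73 and 1.55 (-0.87 ± 0.22, adjusted p = 0.0130). These 3 genes passed the test. Aurka, at 0.88, 0.79, 0.86 and 1.09, narrowly missed it (-0.63 ± 0.20, adjusted p = 0.0525). Top2a (-0.44 ± 0.28) and Ccnb1 (-0.43 ± 0.27) did not pass either.

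The largest M2 difference was that of Cenpe, the kinesin of kinetochores, which fell by 1.25 ± 0.27, followed by Prc1 at -1.16 ± 0.23. The other genes that fell were Esco2 (-0.93 ± 0.29), Ccnb2 (-0.96 ± 0.22), Melk, Bub1, Birc5 (-0.92 ± 0.18), Ect2, Cdc20 (-0.85 ± 0.24) and Ube2c (-0.81 ± 0.25). Ccna2, with the largest value of its group, missed at -0.96 ± 0.32 (adjusted p = 0.0587). None of the 6 Kif genes passed: they ran from -1.08 ± 0.38 for Kif15 to -0.17 ± 0.33 for Kif23. Small values without a call were those of Nek2 (-0.37 ± 0.31), Bub1b (-0.16 ± 0.37) and Anln (-0.61 ± 0.28). Only Cenpa (0.30 ± 0.24) and Hmmr (0.06 ± 0.39) had M2 means above M0 naive, and neither passed.

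Set against each other, M1 was lower than M2 in 34 of 36 genes, with a median of -2.43 (-2.07 with 10 genes at their bounds), against -0.02 over all rows. Of all rows, 17.3% were called lower and 17.6% higher. The differences were -1.66 ± 0.22 for Mki67, -3.35 ± 0.28 for Top2a, -1.73 ± 0.27 for Ccnb1, -2.12 ± 0.20 for Cdk1, -2.44 ± 0.20 for Aurka and -3.20 ± 0.22 for Plk1. Other genes measured in M1 included Ccna2 (-4.91 ± 0.32), Anln (-3.82 ± 0.28), Cdc20 (-2.66 ± 0.24), Nusap1 (-2.39 ± 0.27), Prc1 (-2.06 ± 0.23), Ube2c (-1.73 ± 0.25), Melk (-1.48 ± 0.23) and Ndc80 (-0.80 ± 0.28). Genes with only a bound included Kif20a (at least 24.3-fold lower), Nuf2 (at least 4.61-fold by the probe used), Nek2 (at least 3.32-fold), Kif2c (at least 2.88-fold), Kif15 (at least 1.73-fold) and Cdc25c (at least 1.15-fold). Kif15 and Cdc25c were above background on 3 M2 arrays. All genes with only a bound entered this test through M2 alone. Tpx2 (-0.27 ± 0.24 by the probe used, and -0.97 by another) and Hmmr (-0.48 ± 0.39) did not pass.

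M0 post-sepsis cultures were higher than M2 in 35 of 36 genes, with a median of 2.57 against 0.07 over all rows. Of all rows, 12.9% were called higher and 8.81% lower. The differences were 2.96 ± 0.22 for Mki67, 2.19 ± 0.28 for Top2a, 2.62 ± 0.27 for Ccnb1, 2.38 ± 0.21 for Cdk1, 2.96 ± 0.20 for Aurka and 3.13 ± 0.22 for Plk1. Elsewhere they ran from 0.74 ± 0.24 for Cenpa to 3.16 ± 0.32 for Ccna2, with Aurkb at 2.24 ± 0.28, Bub1 at 3.03 ± 0.25, Kif11 at 2.81 ± 0.30, Kif23 at 1.44 ± 0.33, Birc5 at 3.04 ± 0.18, Prc1 at 3.06 ± 0.23, Anln at 2.83 ± 0.28, Cdc20 at 3.09 ± 0.24 and Ube2c at 2.74 ± 0.25. Hmmr, at 0.78 ± 0.39, was the one gene that did not pass. This comparison reuses the arrays of both groups from those above.

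The TAM comparison asked the sepsis question in tumor macrophages, and here no mitosis gene passed. In the limma fit 0 of 37 tested genes were called, as were 0% of all 24406 rows; 14 of the 37 and 9246 of all rows had an unadjusted p under 0.05. The median was 0.61, against 0.06 over all rows, and 36 of the 37 means were above 0. The positional index of RNA was -0.18, -0.27 and -0.01 on TAM naive replicates 1, 3 and 4, and -0.02, -0.26, 0.05 and 0.06 on TAM post-sepsis replicates 1 to 4. The 3 arrays of lowest index, TAM naive replicates 1 and 3 and TAM post-sepsis replicate 2, were also the 3 of lowest mean mitosis signal, and the part of this in the difference was not tested. In 3 genes, Esco2, Kif20a and Tpx2, every post-sepsis array exceeded every naive array, which held for 11.5% of all rows.

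Mki67 had 4.43, 4.49 and 4.82 in TAM naive and 5.02, 5.08, 4.75 and 4.80 in TAM post-sepsis, a difference of 0.33 ± 0.20 (adjusted p = 0.237). Top2a had 0.30, 0.41 and 1.82 against 2.39, 1.44, 2.44 and 2.61, or 1.38 ± 0.45 (adjusted p = 0.110). In both genes the groups overlapped, through naive replicate 4 and, for Top2a, post-sepsis replicate 2. The other 4 genes named throughout were at lower values than Top2a: Ccnb1 (0.24 ± 0.29), Cdk1 (0.57 ± 0.37), Aurka (0.75 ± 0.31) and Plk1 (0.61 ± 0.32).

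Plk1 had 3.75, 4.22 and 4.71 in naive and 5.29, 4.53, 4.46 and 5.04 in post-sepsis TAM, and Aurka had 2.55, 2.90 and 3.42 against 4.10, 3.13, 3.67 and 3.92. In each gene, naive replicate 4 was the highest of its group and reached into the post-sepsis range. The largest means by role were those of Cdc25c (0.81 ± 0.48), Nek2 (1.38 ± 0.51), Nuf2 (1.72 ± 0.59), Kif15 (1.02 ± 0.37), Tpx2 (0.81 ± 0.27), Anln (0.74 ± 0.28) and Ube2c (0.53 ± 0.29). The smallest were Melk (0.48 ± 0.26), Cenpe (0.17 ± 0.20), Kif2c (0.36 ± 0.38), Ect2 (0.45 ± 0.24) and Cdc20 (0.40 ± 0.27). Hmmr was the one gene below 0, at -0.17 ± 0.27.

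The absence of calls depended on the model. With the slide as a block, 12 of 37 passed as higher, against 9.02% of all rows higher and 23.9% lower: Bub1b at 1.66, Nuf2 at 1.68, Nek2 at 1.39, Top2a at 1.36, Kif11 at 1.02, Esco2 at 1.01, Kif15 and Cenpa at 0.98, Kif4 at 0.96, Tpx2 and Kif23 at 0.78 and Anln at 0.72. Within slides the median was 0.95 on slide 1, -0.01 on slide 2 and 0.62 on slide 3. Slides 2 and 3 each held 1 array of either TAM group, and slide 1 held 1 naive and 2 post-sepsis arrays. Without TAM post-sepsis replicate 2, which had the lowest array mean of its group, 17 genes passed, against 8.28% of all rows. With array weights 30 passed, against 22.5% of all rows, and with replicate number as a block 16, against 9.59%.

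The label TAM sits beside marker levels of other cells. Melanocyte markers summed to 1630 to 2130 times the 75th percentile on TAM post-sepsis and 1660 to 2200 on TAM naive arrays, against 6.22 to 23.6 on the marrow cultures. Fibroblast markers summed to 205 to 1060 on TAM arrays and 0.62 to 3.05 on the cultures. Erythroid markers summed to 16.8 to 580 on TAM arrays and 0.134 to 0.458 on the cultures. Sums of the endothelial, epithelial, neutrophil and progenitor, T and NK cell, B cell and dendritic cell lists overlapped between TAM arrays and cultures. The 11 macrophage markers were all above background on every TAM array, but summed to 64.9 to 375, against 716 to 1890 on the cultures. Itgam had the highest mean of the 11 in both TAM groups, so these sums depend largely on it. At 7.72 ± 0.65 (SD, n = 3) in TAM naive it was above its M0 naive mean of 6.09 ± 1.27 (SD, n = 4). Mean log2 levels of the list were 1.23 in TAM naive and 1.03 in TAM post-sepsis, and 5.04 to 6.19 in the marrow groups. Emr1, which encodes F4/80, stood at -0.67 ± 0.48 (SD, n = 3) in TAM naive and 6.87 ± 0.24 (SD, n = 4) in M0 naive. Between the TAM groups, B cell markers had a median of -2.73 and T and NK cell markers of -1.98 in post-sepsis, with 0 of 5 and 0 of 7 called. Of the melanocyte markers 0 of 6 were called (median 0.22). Dendritic cell markers had a mean log2 level of 0.67 ± 0.43 (SD, n = 3) in TAM naive and -0.79 ± 0.42 (SD, n = 4) in TAM post-sepsis. The part of these cells in the TAM results was not tested.

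**Figure D4:**
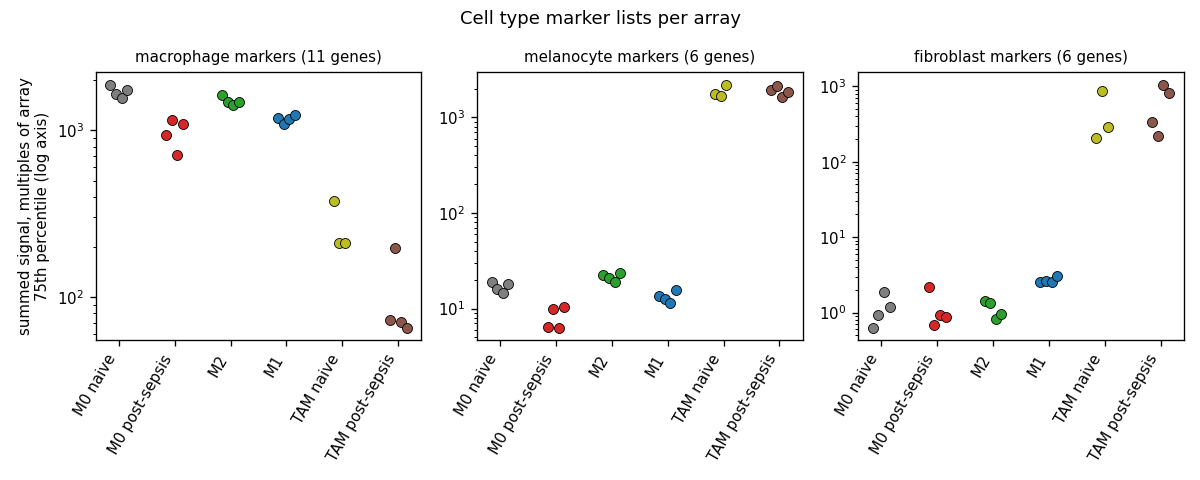
Summed signal of the macrophage, melanocyte and fibroblast marker lists on each of the 23 arrays, as multiples of the array's 75th percentile, on log axes. Macrophage sums are 64.9 to 375 on TAM arrays, where they depend largely on Itgam, and 716 to 1890 on cultures. Melanocyte sums are 1630 to 2200 on TAM arrays and 6.22 to 23.6 on cultures.

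TAM naive had more mitosis gene signal than M0 naive cultures. Of 36 tested genes 22 were higher, 0 lower, and the median was 1.02, against 0.00 over all rows. Of all rows, 16.8% were called higher and 22.7% lower. In 23 genes every TAM naive array exceeded every M0 naive array, as in 18.3% of all rows. Scaling by array medians moved the median of all rows to -0.35 and that of these genes to 0.67. With that scaling 12 of 36 were called higher, as were 2798 of all 25420 rows. With TAM naive replicate 2 put back, 6 of 36 were called higher, as were 4780 of all 25574 rows. These genes then did not exceed the share of all rows.

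The checkpoint kinase gene Bub1 differed most, at 2.24 ± 0.25 (adjusted p = 3.23e-07), and Ccnb1 followed at 2.17 ± 0.30. Cdc20 was higher by 1.81 ± 0.26, Ect2 by 1.86 ± 0.25, Plk1 by 1.75 ± 0.27, Birc5 by 1.53 ± 0.20, Mki67 by 1.43 ± 0.22, Aurka by 1.42 ± 0.25 and Kif4 by 1.12 ± 0.34. Prc1 (1.23 ± 0.25) and Ube2c (1.24 ± 0.28) had the smallest values of their roles and still passed. Top2a (0.54 ± 0.37), Cdk1 (0.61 ± 0.28), Esco2 (0.41 ± 0.28), Nek2 (0.65 ± 0.42), Nusap1 (0.37 ± 0.31) and Ndc80 (0.01 ± 0.29) did not pass. Cenpa (-0.53 ± 0.34), Nuf2 (-0.15 ± 0.54), Kif23 (-0.14 ± 0.35) and Bub1b (-0.03 ± 0.44) had lower means in TAM naive, none of which passed. All 6 melanocyte and 6 fibroblast markers were higher in the same comparison (medians of 11.76 and 8.60), and 10 of 11 macrophage markers lower (median -5.52).

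Whether the sepsis difference was the same in TAM and in M0 cultures was tested as an interaction. The TAM difference was smaller in 17 of 37 genes and larger in 0, with a median of -1.08, against -0.20 over all rows. Of all rows, 2.92% were called lower and 4.7% higher. Each value is that of the probe used, and for Ccnb1 and Birc5 the gap varied with the probe, as given below. Ccnb1 (-1.94 ± 0.40, adjusted p = 0.00586), Mki67 (-1.88 ± 0.30, adjusted p = 0.000709), Cdc20 (-1.83 ± 0.36), Bub1 (-1.83 ± 0.35), Melk (-1.74 ± 0.34), Birc5 (-1.74 ± 0.28), Plk1 (-1.64 ± 0.36), Aurka (-1.58 ± 0.35), Ect2 (-1.57 ± 0.34), Prc1 (-1.41 ± 0.34) and Ube2c (-1.39 ± 0.38) were among the 17. All 3 cytokinesis genes passed and 0 of 6 Kif genes did, where values ran from -1.07 ± 0.57 for Kif2c to -0.25 ± 0.56 for Kif15. The kinetochore kinesin gene Cenpe passed at -1.41 (limma's interaction test, adjusted p = 0.0211).

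The values nearest 0, none of which passed, were those of Cenpa (-0.02 ± 0.46), Bub1b (0.08 ± 0.60), Nuf2 (-0.24 ± 0.74), Kif15 (-0.25 ± 0.56) and Top2a (-0.37 ± 0.50), and wide errors do not show that the effects were alike. Bub1b was the one gene above 0. Ttk entered the test, but it was above background on no M0 naive array, so its value is not given. Cdk1 (-0.88 ± 0.39) and Nusap1 (-0.93 ± 0.43) did not pass. Scaling by array medians moved the median of all rows from -0.20 to 0.45 and left 0 of the 17 calls, with a median of -0.43. Fitting only the 4 groups left 8, against 263 of 26198 rows called lower. Putting TAM naive replicate 2 back left 1, against 372 of 26302 rows.

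**Figure D5:**
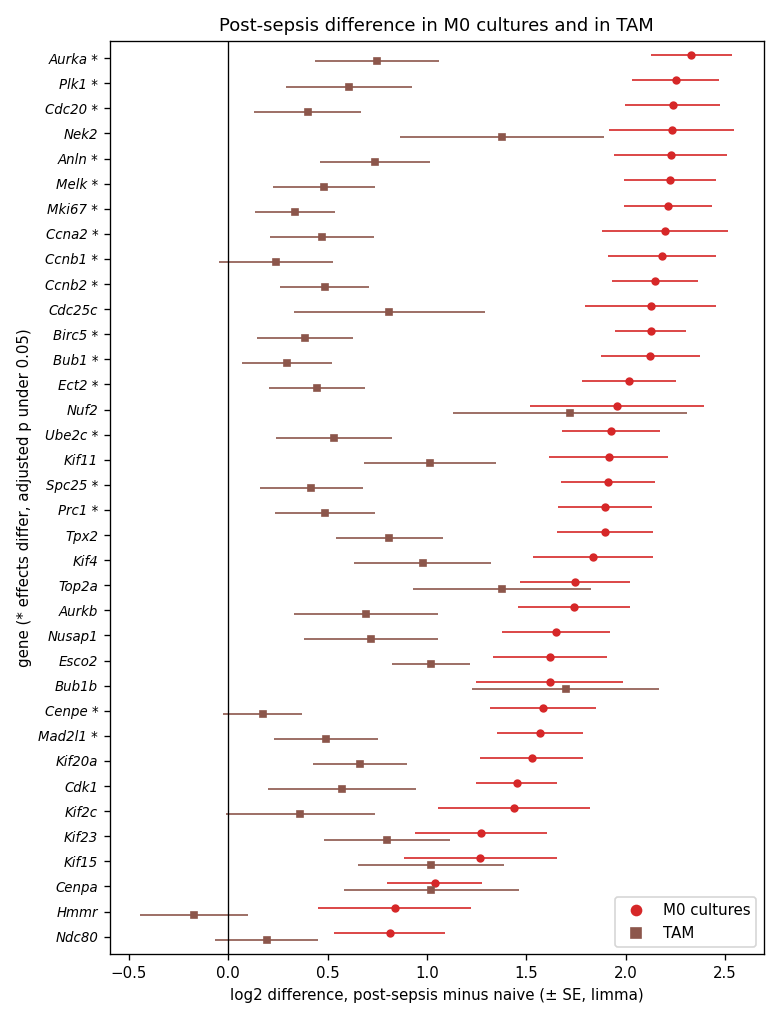
Log2 difference, post-sepsis minus naive, of each mitosis gene in M0 cultures (circles) and TAM (squares), with limma standard errors, ordered by the M0 value; an asterisk marks the 17 genes whose effects differed. M0 values lie between 0.81 and 2.33 and TAM values between -0.17 and 1.72.

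Other genes of the same programme were read from lists that were chosen with earlier results of these data known. Of 72 further mitosis genes, 62 rose and 0 fell in M0 post-sepsis cultures (median 1.52), against 7.06% and 6.6% of all rows. Cks1b, a CDK partner, was at 2.10 ± 0.22 and Sgol1, which guards centromeric cohesion, at 2.15 ± 0.23. In M1, 56 of 71 fell (median -1.90), against 16.2% of all rows, led by the spindle-pole gene Aspm at -6.46 ± 0.25. There 3 rose, against 15% of all rows: Zwint at 1.47 ± 0.23, Pttg1, which encodes securin, at 0.69 ± 0.18, and Cenpl at 0.86 ± 0.25. In M2, 19 of 71 fell, against 8.08% of all rows. In TAM post-sepsis 0 of 72 were called (median 0.67), as were 0% of all rows. In TAM naive against M0 naive 30 of 72 were higher and 5 lower, against 16.8% and 22.7% of all rows. Between the sepsis effects 13 of 72 differed, all with smaller values in TAM, against 2.92% of all rows.

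Of 18 condensin and cohesin genes, 9 rose and 1 fell in post-sepsis M0, against 7.06% and 6.6% of all rows. Ncapd2 of condensin I rose by 1.85 ± 0.22, and the exception was Ncapg2 of condensin II (-1.11 ± 0.24). In M1, 9 of 17 fell, with Ncapg2 at -4.82 ± 0.24 and Ncaph at -4.55 ± 0.26, and the cohesin release factor gene Wapal rose by 1.20 ± 0.26. Of the anaphase-promoting complex, 5 of 14 rose in post-sepsis M0, among them the ubiquitin enzyme Ube2s (1.16 ± 0.18) and the inhibitor Fbxo5 (1.38 ± 0.21). In M1 4 of 14 rose and 2 fell, with Cdc26 at 1.20 ± 0.18, the G1 activator Fzr1 at 1.19 ± 0.23, Fbxo5 at -2.08 ± 0.21 and Anapc13 at -1.33 ± 0.18. Over all rows 15% were called higher and 16.2% lower in M1.

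Of 19 E2F, MYB-MuvB and FOXM1 regulators, 7 rose and 0 fell in post-sepsis M0 cultures, against 7.06% and 6.6% of all rows. Foxm1, the transcription factor of G2 genes, rose by 1.91 ± 0.26, and the late E2F repressors E2f7 and E2f8 by 1.88 ± 0.26 and 1.73 ± 0.25. In M1, 6 of 19 fell, against 16.2% of all rows, with E2f7 at -5.85 ± 0.26, E2f8 at -4.27 ± 0.25 and Foxm1 at -2.46 ± 0.25. In M2, 2 of 19 fell, against 8.08% of all rows, E2f7 by 1.73 ± 0.26 and Lin9, a MuvB subunit, by 0.96 ± 0.21, while Foxm1 missed at -0.74 ± 0.25. Foxm1 was 2.31 ± 0.29 higher in TAM naive than in M0 naive, where 5 of 19 were higher and 5 lower, against 16.8% and 22.7% of all rows.

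G1 genes split in M1. The D cyclin gene Ccnd1 fell by 3.80 ± 0.26 and Myc fell by 3.79 ± 0.36, whereas Ccne1, the cyclin of S phase entry, rose by 2.38 ± 0.22 and Ccnd2 by 1.38 ± 0.28. In post-sepsis M0, 6 of 10 rose, among them Ccne1 (1.76 ± 0.22), Ccnd2 (2.07 ± 0.28), Ccnd1 (1.81 ± 0.26) and Myc (1.79 ± 0.36), and Csf1r alone fell. In M2, Ccnd3 fell by 1.65 ± 0.18 and Myc rose by 1.30 ± 0.36. CDK inhibitor and arrest genes rose in 6 of 16 and fell in 5 of 16 in M1, with the antiproliferative gene Btg1 at 2.93 ± 0.18, the MYC antagonist Mxd1 at 3.07 ± 0.21, Cdkn1a, which encodes p21, at 2.07 ± 0.25 and Cdkn2c, which encodes p18, at -3.31 ± 0.18. In post-sepsis M0, 3 of 16 rose and 6 fell, with the stress gene Gadd45a at -2.38 ± 0.23 and Cdkn2c at 1.51 ± 0.18. Over all rows 15% were called higher and 16.2% lower in M1, and 7.06% and 6.6% in post-sepsis M0.

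The mitosis genes also varied together among arrays of 1 group. After each group's mean was removed, the 630 pairs of the 36 genes above background on at least 75% of arrays had a median Pearson correlation of 0.58 over 23 arrays, and 93.7% of pairs were above 0. Over 2701 rows chosen the same way, taken at every eighth place, the median was 0.01 and 50.7% of pairs were above 0. Pairs share array, slide and scaling, so this is a description. Kif15 (0.93), Nusap1 (0.93), Cenpa (0.92) and Tpx2 (0.91) followed the mean of the other members most closely, and Kif2c (0.29), Hmmr (0.13) and Ndc80 (-0.08) least. Hmmr and Ndc80 were also the 2 tested genes that did not pass in post-sepsis M0 cultures.

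Of the 38 genes 11 had more than 1 probe. In the post-sepsis M0 comparison 12 of 14 other probes had the sign of the probe used, 13 of 13 in M1, 11 of 13 in M2 and 10 of 13 in the TAM comparison, counting probes above background on at least 3 arrays of a compared group. The 2 of opposite sign in post-sepsis M0 belonged to Cdk1 and Nuf2, whose probes (mm9, minus strand) are shown by their first 30 bases of 60, with the bases that the 2 overlapping Cdk1 probes both show in capitals.
Cdk1, probe used, chr10:68801072-68801131: ttcttaatttcctacgtatAACTTAATTAA
Cdk1, overlapping probe, chr10:68801053-68801112: AACTTAATTAAcatgtaaatattattccat
Cdk1, distant probe, chr10:68799513-68799572: atacactaaaaatttgggtagccaggaggt
Nuf2, probe used, chr1:171428989-171429048: atctttgtaaacttgaaaagtgctctggag
Nuf2, second probe, chr1:171440451-171440510: gcactctctgaactacttagtgtctgtgca
The overlapping Cdk1 probes, offset by 19 bases, gave 1.45 and 1.44 in post-sepsis M0 and -3.05 and -3.33 in M1. The distant Cdk1 probe gave -0.10 and -0.79 and was above background on 18 arrays. The second Nuf2 probe gave -0.44 in post-sepsis M0 against 1.96 for the probe used, and was above background on 10 arrays. Ube2c differed in size: its second probe was at -5.62 in M1 against -2.54 for the probe used, with 2 M1 arrays above background. Birc5 in M1 was at -2.23 by the probe used and at -4.10 and -2.38 by the others, with 3 and 4 M1 arrays above background. The gap between the sepsis differences varied with the probe in Ccnb1 and Birc5. For Ccnb1 the probe used gave 2.18 in M0 and 0.24 in TAM, and the other probes 1.90 and 1.37, and 2.30 and 0.30. For Birc5 the probe used gave 2.12 in M0 and 0.38 in TAM, and the other probes 2.04 and 1.29, and 2.15 and 0.79. Both Tpx2 probes showed a small M1 difference from M0 naive, -0.67 and -0.50. They parted elsewhere, at -0.27 and -0.97 in M1 against M2 and at -0.40 and 0.47 in M2 against M0 naive. Hmmr had 1 probe.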

How the data were processed

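Per the file headers, the authors deposited 1 scanner file per array with spot intensity extracted by Agilent Feature Extraction 10.7.3.1, annotated on mm9; per the submitters' processing notes the version was 12.5. Per the labels, 100 ng of RNA per sample was labelled with Cy3. Per the file headers, the deposited intensity was corrected array by array for background and for spatial trend. Flags deposited by the authors in the same files marked control spots and spots well above background or saturated. The deposited value table was not used.

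The processed intensity was put on the log2 scale, the 75th percentile of each array was subtracted, and spots of 1 probe were averaged. A gene name stood for its probe of highest mean, which covers 1 probe per gene. A row was tested where at least 3 arrays of a compared group were well above background. Differences were fitted with limma 3.58.1 in R 4.3.3, 16 marrow arrays, 7 TAM arrays or all 23 arrays together, two-sided. A group above background on no array gives only a bound, written "at least": the brighter mean over the mean, per array, of the higher of the dim probe and the lowest signal well above background. The number of arrays limits the precision.

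The members and the gene lists were chosen with earlier results of these data known. Named in each comparison are Mki67, Top2a, Ccnb1, Cdk1, Aurka and Plk1, the largest and smallest member of each role and members of opposite direction; from other lists, up to 4 of smallest p, with Zwint, Pttg1, Cenpl, Wapal, Cdkn1a and, in post-sepsis M0 cultures, Myc chosen after their values were seen. On simulated data with 100 genes changed by 2 log2 units, the fit recovered 79% in the M0 comparison (24578 rows) and 55% in the TAM comparison (24406 rows). Another 100 genes in the same data were changed by 1 log2 unit, and 30% and 5% were recovered. The simulated noise was independent and normal, without slides. Far fewer rows were changed than the 3358 called in the M0 comparison, so these rates do not give the power of the fits above. Alternatives were normexp, quantile and median scaling, other filters, all probes, fewer groups, slide or replicate as a block, array weights, and leaving out or adding arrays.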

Additional observations from a re-analysis of the deposited data

Results flagged for a closer look

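In 13 of 195 sets of 4 arrays, 1 array lay far from the other 3 of its group by Dixon's test, which chance gives in about 1 set in 20. In M2 cultures, replicate 2 was the lowest for Top2a (-0.35, next -0.08), Melk (-1.39, next -1.04), Bub1 (-1.99, next -1.38) and Prc1 (0.86, next 1.25), and replicate 4 for Hmmr (0.73, next 1.60). In TAM post-sepsis, replicate 2 was the lowest for Cenpa (1.72, next 2.78), Nuf2 (-1.56, next 0.17), Kif15 (-1.94, next -0.88) and Anln (3.22, next 3.82). In M0 naive, replicate 3 was low for Aurka (0.96, next 1.67) and replicate 1 high for Nek2 (-2.06, next -2.29). The last 2 were Cdk1 in M1 replicate 3 (-1.12, next -0.72) and Hmmr in M0 post-sepsis replicate 3 (1.16, next 2.46).

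The post-sepsis difference was smaller in TAM than in M0 cultures for 17 genes, by limma's interaction test on the probe used, with adjusted p-values. The cyclins were Ccnb1 (-1.94, adjusted p = 0.00586), Ccna2 (-1.73, adjusted p = 0.0228) and Ccnb2 (-1.66, adjusted p = 0.00256). The marker Mki67 was at -1.88 (adjusted p = 0.000709). The kinases were Melk (-1.74, adjusted p = 0.00394), Plk1 (-1.64, adjusted p = 0.00914) and Aurka (-1.58, adjusted p = 0.00868). Checkpoint and kinetochore genes were Bub1 (-1.83, adjusted p = 0.00295), Spc25 (-1.49, adjusted p = 0.0134), Cenpe (-1.41, adjusted p = 0.0211) and Mad2l1 (-1.08, adjusted p = 0.0499). The passenger gene Birc5 was at -1.74 (adjusted p = 0.00062). Cytokinesis genes were Ect2 (-1.57, adjusted p = 0.00804), Anln (-1.49, adjusted p = 0.0327) and Prc1 (-1.41, adjusted p = 0.0169). Cdc20 was at -1.83 (adjusted p = 0.0038) and Ube2c at -1.39 (adjusted p = 0.03).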

How the results depend on the processing

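Over 18 settings each, the number of genes that passed stayed at 27 to 36 higher in M0 post-sepsis against M0 naive and 33 to 35 lower in M1 against M0 naive. It stayed at 30 to 35 lower in M1 against M2 and 32 to 36 higher in M0 post-sepsis against M2. Of all rows, median scaling called the fewest and array weights the most in these directions. In the same order these were 620 and 4745 of 24578, 2388 and 7501 of 24501, 2812 and 6253 of 23989, and 1558 and 4700 of 24622. With normexp background correction the medians were -2.09 for M1 against M0 naive, -1.49 for M1 against M2 and 2.14 for M0 post-sepsis against M2. No group had more than 2 arrays on a slide. Within slides 1, 2 and 3 the M1 against M0 naive median was -3.46, -2.97 and -3.43. On slides 2 and 3 it was -0.38 and -0.85 for M2 against M0 naive, 2.06 and 2.96 for M0 post-sepsis against M2, and 1.59 and 0.62 for TAM naive against M0 naive; on slide 2 it was -2.58 for M1 against M2 and -0.010 for TAM post-sepsis against TAM naive. Array weights gave 25 genes lower and 1 higher in M2, against 6257 and 4497 of all 24592 rows. In the TAM comparison they gave 30 higher, against 5482 of 24406 rows. In TAM naive against M0 naive they gave 1 lower, against 7491 of 25420 rows. Median scaling gave 0 lower in M2, against 670 of 24592 rows, and a TAM median of 1.17. In TAM naive against M0 naive it gave 12 higher with a median of 0.67, against 2798 of 25420 rows. In the interaction it gave 0 with a median of -0.43, against 126 of 26198 rows lower. Fitting only the groups compared left 8 in the interaction, against 263 of 26198 rows lower. With TAM naive replicate 2 the TAM median was 1.38. TAM naive against M0 naive then had 6 higher with a median of 0.38, against 4780 of 25574 rows and a median of 0.23. The interaction had 1 with a median of -0.60, against 372 of 26302 rows lower. With that array, Mad2l1 (-0.068), Kif20a (-0.24) and Tpx2 (-0.13) changed sign in TAM naive against M0 naive. Leaving out 1 array gave 6 to 17 genes lower in M2, 0 to 17 higher in the TAM comparison and 0 to 1 lower in TAM naive against M0 naive. Over all rows the counts ran from 1395 of 23938 to 2376 of 24079 in M2 and from 0 to 2014 of 24325 in TAM. In TAM naive against M0 naive they ran from 4759 of 25634 to 6175 of 25041. Without TAM post-sepsis replicate 2 the TAM count was 17. The slide as a block gave 12 higher in TAM. The replicate number as a block gave 16 higher in TAM, but the numbers do not pair the samples: arrays of the same number had a median correlation of -0.09 over 55 pairs, against 0.01 over 165 other pairs. Apart from values given here, the cause was not tested. Genes above background on no M1 array limit what can be said of the size of their fall.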

Other observations

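TAM naive replicate 2, left out of every comparison, had a mean mitosis gene signal of -1.32, with 16 of the 38 genes well above background, against 0.91 to 1.61 and 36 to 37 genes on the other TAM naive arrays. Of its probes 42.44% were well above background.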
